A study of Mus musculus with 36 samples.

Results

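The measured genes in the segment of the mouse X chromosome from 20 to 45 Mb lie between 60.2 and 83.4 Mb away from Xist. The RNA of Xist silences the chromosome that carries it. All genes that start in this segment in either deposited table were taken, leaving out Araf, Ube2a, C330007P06Rik, Nkap and Zfp300. This gave 33 of the 252 genes measured, and 214 of the others lie outside the segment. All 33 are in the first table, of 249 genes, and 30 are in the second, of 242 genes, which holds the K518E line. Il13ra1, Timp1 and Zbtb33 were not in the second table and have no K518E value. GENCODE annotates 32 of the 33 genes as protein coding and A230072C01Rik as a processed transcript.

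Allele-specific sequencing of chromatin-associated RNA (ChrRNA-seq) was done in iXist-ChrX mouse embryonic stem cells (mESCs), a female Cast x 129S hybrid line in which doxycycline (dox) drives Xist from a TetOn promoter on the 129S X chromosome. The value of a gene is Xi/(Xi+Xa), the fraction of its allelic reads that came from the 129S chromosome (Xi, the inactive one after induction) rather than the Cast chromosome (Xa). Without silencing it is close to 0.5, and silencing of Xi moves it to 0. Only the fractions were analysed, without the number of reads each rests on. Depth per gene is therefore unknown, and the spread between libraries serves as the measure of error.

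The 36 libraries come from 8 lines, each a single clone, and all carry the TetOn Xist allele. They are the parental iXist-ChrX line, an SMCHD1 knock-out (SMCHD1 KO) made from it, and the Halo-SMCHD1 line, in which SMCHD1 carries an N-terminal Halo tag and which also holds an eGFP-CIZ1 transgene at the Rosa26 locus. An LRIF1 knock-out (LRIF1 KO) and the SMCHD1 mutants E147A, Y353C, G137E and K518E, each with the change on both alleles, were made in the Halo-SMCHD1 line and share its tag and transgene. Halo-SMCHD1 and the 5 lines made from it have 1 uninduced library and 1 library after 24 h with 1 µg/ml dox. At day 7 of monolayer differentiation under dox there are 3 libraries of Halo-SMCHD1 and of G137E and 2 of every other line, and at day 5 there are 2 each of Halo-SMCHD1, G137E and K518E. The study's methods describe the replicates as independent repeats of 1 clone, so p-values of contrasts between lines measure the spread between repeats and not between clones. Stage contrasts were fitted over lines, with line as a block. Their p-values measure how unevenly the lines changed, together with the spread between repeats where a stage has them. These lines share a parent and are not independent replicates of 1 genotype. The columns of iXist-ChrX were matched to the labels by elimination, and 1 of the 2 E147A day 7 libraries bears a replicate number that the labels do not give. The tables hold X-linked genes only, so the cell type and the mutated genes could not be checked in them.

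Xist RNA coats the chromosome that makes it and recruits complexes that remove active histone marks and add repressive ones, and genes fall silent over hours to days at rates that differ from gene to gene. SMCHD1 is a chromatin protein of the SMC family with a GHKL ATPase domain that builds up on the inactive X and is needed for the silencing of a subset of its genes. LRIF1 is a partner that helps SMCHD1 reach heterochromatin. E147A is a change in the ATPase domain that blocks ATP hydrolysis. Y353C, found in patients with a muscular dystrophy (FSHD2), was reported to strongly reduce ATPase activity. G137E and K518E were reported to raise ATPase activity in vitro. Both are known from Bosma arrhinia microphthalmia syndrome, and G137E was seen in FSHD2 too. Genes that stay partly active on the inactive X are called escape genes, and Kdm6a, a histone demethylase gene, is a classical one.

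In genome order the genes form 4 groups separated by more than 2 Mb without a measured gene. The first, from 20059570 to 21062038 (mm10), holds 16 genes, from Chst7 to Zfp182. The second, from 23219271 to 23806001, holds Klhl13 and Wdr44. The third, from 35888832 to 38613522, holds 10 genes from Dock11 to Mcts1, and the fourth, from 41401301 to 43274784, holds Gria3, Thoc2, Xiap, Stag2 and Tenm1. Chst7 is the first gene inside the lower limit and Tenm1 the last inside the upper one. The nearest measured genes outside are Kdm6a, from 18162667 to 18279358 on the plus strand, and Smarca1, a nucleosome remodelling ATPase gene, from 47809370 to 47892552 on the minus strand. Averaged over lines, Kdm6a was at 0.502 at 24 h and 0.303 at day 7, whereas Smarca1 was at 0.0857 and 0.00267. Chst7 was at 0.177 and 0.0358, and Tenm1 at 0.215 and 0.0381, both between their outer neighbours at each of these stages.

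Promoter sequences were drawn for the pair of genes with the lowest and the pair with the highest ratio at 24 h, which stand at the ends of the range of 24 h ratios. Klhl13 had the lowest ratio before induction too. Each runs from 250 bases before to 50 bases after the start of the gene in RefSeq (build GRCm38.p6), 5′ to 3′ on the strand of the gene. They are Il13ra1 at chrX:36111858-36112157 on the plus strand, Klhl13 at chrX:23285510-23285809 on the minus strand, Wdr44 at chrX:23692801-23693100 on the plus strand and Uba1 at chrX:20658052-20658351 on the plus strand. Capitals mark the core of the YY1 motif, AANATGGC, on either strand.
Il13ra1: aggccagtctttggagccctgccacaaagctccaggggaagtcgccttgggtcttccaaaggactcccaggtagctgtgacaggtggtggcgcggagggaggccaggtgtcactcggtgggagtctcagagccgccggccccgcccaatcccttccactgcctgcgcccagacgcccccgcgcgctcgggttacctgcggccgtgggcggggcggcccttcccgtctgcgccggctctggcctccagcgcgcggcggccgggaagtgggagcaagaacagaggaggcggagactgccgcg
Klhl13: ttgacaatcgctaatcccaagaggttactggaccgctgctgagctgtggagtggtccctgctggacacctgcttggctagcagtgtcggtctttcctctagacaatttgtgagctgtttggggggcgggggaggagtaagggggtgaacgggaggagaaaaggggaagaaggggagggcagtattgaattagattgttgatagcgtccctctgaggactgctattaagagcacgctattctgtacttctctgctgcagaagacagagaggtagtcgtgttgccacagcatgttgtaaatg
Wdr44: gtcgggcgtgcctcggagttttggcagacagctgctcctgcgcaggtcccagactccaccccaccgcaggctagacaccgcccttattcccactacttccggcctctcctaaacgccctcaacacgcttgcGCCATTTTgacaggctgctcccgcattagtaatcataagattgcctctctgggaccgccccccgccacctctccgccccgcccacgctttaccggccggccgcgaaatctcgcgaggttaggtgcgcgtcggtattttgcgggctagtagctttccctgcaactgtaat
Uba1: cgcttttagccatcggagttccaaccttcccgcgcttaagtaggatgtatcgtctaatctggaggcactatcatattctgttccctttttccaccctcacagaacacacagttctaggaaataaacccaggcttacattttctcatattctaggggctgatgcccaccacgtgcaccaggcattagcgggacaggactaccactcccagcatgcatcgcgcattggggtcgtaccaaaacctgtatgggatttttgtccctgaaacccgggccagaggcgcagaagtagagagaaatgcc
The Wdr44 promoter holds 1 match to the YY1 core and the other three hold none. A match was found in 5 of the 30 promoters of the segment that the table lists (16.7%), those of Ndufb11, Usp11, Wdr44, Upf3b and Thoc2, and in 6.05% of all 32851 promoters of that length. These sets differ in composition, with a median CpG count of 14 in the segment and 7 over all, and a median GC content of 56.8% and 52.7%. Whether the segment holds more matches than promoters of like composition was not tested. CpG dinucleotides numbered 28 in the Il13ra1 window, 8 in Klhl13, 26 in Wdr44 and 12 in Uba1, so neither the pair with low nor the pair with high ratios was alike in CpG content. Over the 30 promoters the CpG count and the 24 h ratio had a Spearman rho of 0.38 across genes, which are not independent replicates.

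Before induction all 33 genes were transcribed from both X chromosomes. Averaged over the 5 uninduced libraries of the first table, the ratio ran from 0.291 for Klhl13 to 0.585 for Timp1 with a median of 0.508, and all 33 lay between 0.25 and 0.75. The uninduced ratios of Klhl13, which encodes an adaptor of a cullin ubiquitin ligase, were 0.306 in Halo-SMCHD1, 0.276 in LRIF1 KO, 0.288 in E147A, 0.283 in Y353C, 0.302 in G137E and 0.329 in K518E. It thus started from the Cast side in all 6 libraries, and its low ratio at 24 h has to be read against that start. Xist itself was at 0.881 to 0.995 in the uninduced libraries and at 0.997 or above in every induced one.

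Within 24 h of dox, transcription from Xi dropped for most of the 33 genes. The median ratio over the genes of the segment went from 0.494 to 0.515 in the 6 uninduced libraries to 0.237 to 0.284 in the 6 libraries at 24 h, with K518E at the lower end and E147A at the upper. Medians and shares of K518E are over 30 genes of the segment and those of the other lines over 33. limma on the log2 odds of the ratio (0.01 added to both alleles), with line as a block, called a fall for 31 of 33 genes, beside 96% of all 249 genes of the table. The median difference was -1.50 in log2 odds for the segment and -1.57 for all genes. Wdr44 (-0.73 ± 0.39, SE, adjusted p = 0.112) and Slc25a5 (-0.19 ± 0.11, adjusted p = 0.126) did not pass the test. As a share of the uninduced ratio of the same line, the median gene of the segment kept 51.9% in Halo-SMCHD1, 48.8% in LRIF1 KO, 56.4% in E147A, 54.5% in Y353C, 52.4% in G137E and 45.2% in K518E. Over all genes of the tables these shares were 45.9%, 50.2%, 55.1%, 51.4%, 54.7% and 42.0%. With 1 library per line at this stage, these shares have no replicate spread, and the lines were not tested against each other at 24 h.

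**Figure D1:**
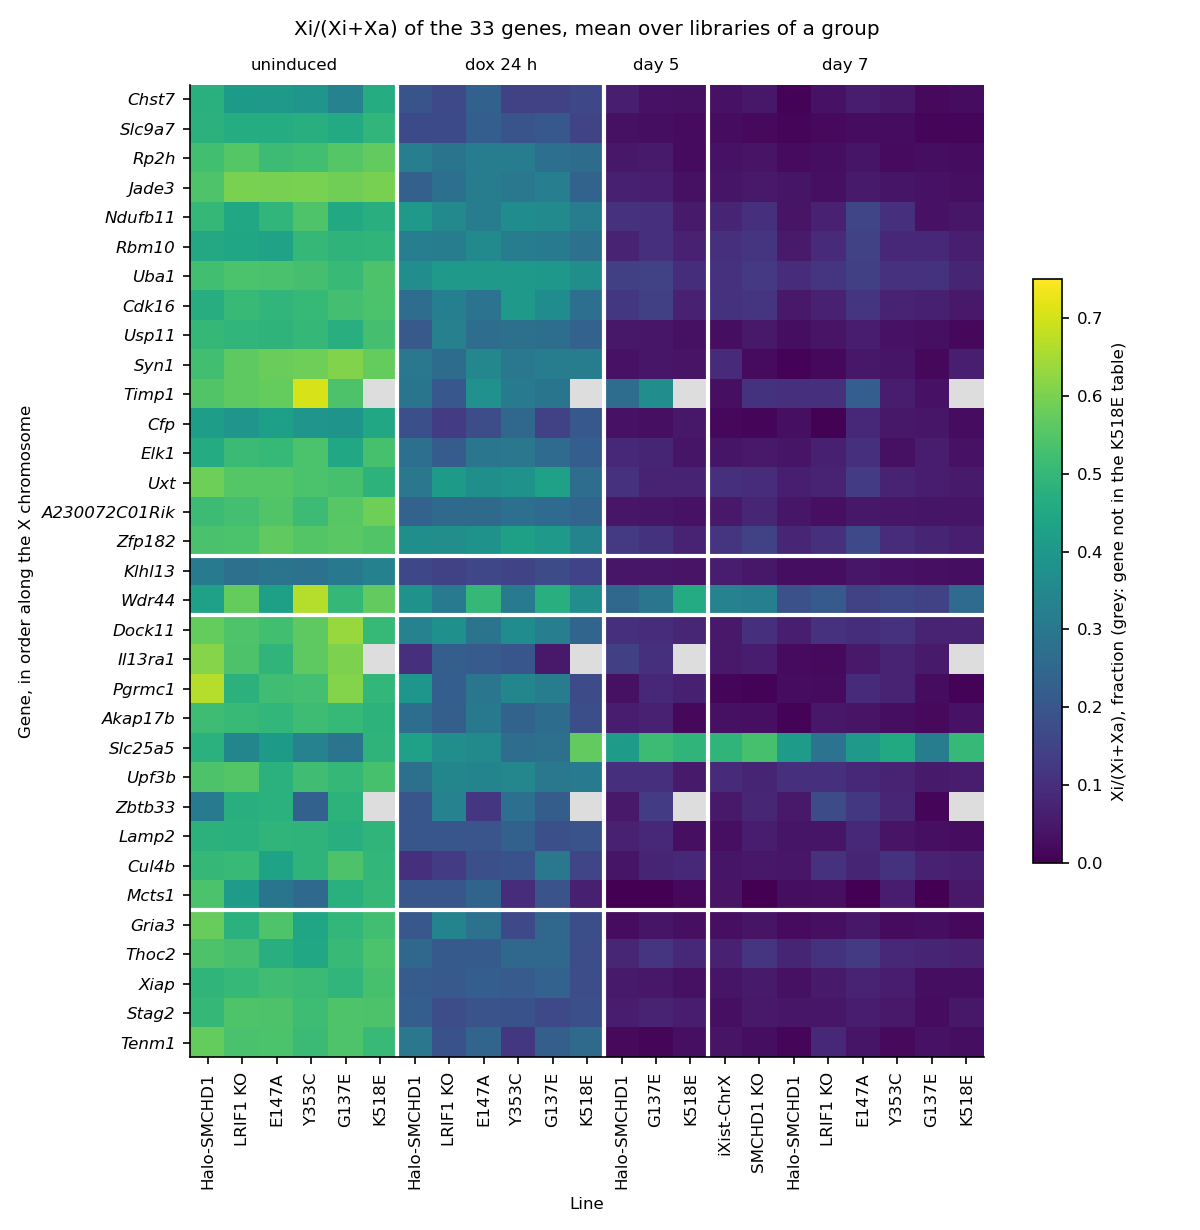
Xi/(Xi+Xa) of the 33 genes (rows, in order along the chromosome; horizontal white lines separate the 4 position groups, vertical ones the stages, and grey marks genes without a K518E value) in each line (columns) at each stage, as the mean over the libraries of a group on a colour scale from 0 to 0.75. Slc25a5 is the row that stays bright at day 7, and Wdr44 is the next, while the other rows are darker at day 7 than before induction in every line with both stages.

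By day 7 most of the 33 genes were close to silent on Xi. This does not cover the genes of the segment that were left out. Averaged over the same lines at day 7, Araf stood at 0.128, Nkap at 0.229, Zfp300 at 0.0384, C330007P06Rik at 0.9996 and Ube2a at 1. Averaged over the 7 lines of the first table, the ratio ran from 0.0199 for Slc9a7 to 0.414 for Slc25a5, with a median of 0.0487. In these averages 29 of 33 genes were under 0.1 and 18 under 0.05, and the 4 above 0.1 were Zfp182 at 0.112 ± 0.0333 (SD over lines, n = 7), Uba1 at 0.115 ± 0.0154, Wdr44 at 0.215 ± 0.0803 and Slc25a5 at 0.414 ± 0.0895. The 4 lowest were Slc9a7 at 0.0199 ± 0.00488, Mcts1 at 0.0221 ± 0.0228, Akap17b at 0.0299 ± 0.0133 and Rp2h at 0.0314 ± 0.00877, which differ from each other by less than the spread over lines of Mcts1 or Akap17b. limma called a further fall from 24 h to day 7 for 32 of 33 genes, beside 94.8% of all genes, with a median difference of -2.43 for the segment and -2.48 for all. Slc25a5 did not pass the test (0.15 ± 0.47, adjusted p = 0.756). At day 5, measured in 3 lines, 27 of the 30 genes of the second table had fallen from 24 h, beside 92.6% of all 242. Those that did not pass were Wdr44 (-0.50 ± 0.42, adjusted p = 0.281), Slc25a5 (0.30 ± 0.57, adjusted p = 0.623) and Cul4b (-1.74 ± 0.75, adjusted p = 0.0582).

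Between day 5 and day 7 a smaller fall followed. limma called 11 of 30 genes lower at day 7, beside 33.1% of all genes, and none higher. The 11 were Usp11, Slc9a7, Cdk16, Chst7, Zfp182, Wdr44, Lamp2, Uxt, Jade3, Stag2 and Xiap. The fall was -0.60 ± 0.13 for Usp11 (adjusted p = 0.00669) and -1.18 ± 0.31 for Chst7 (adjusted p = 0.0156), and the median was -0.50 for the segment and -0.54 for all genes. Without the Halo-SMCHD1 libraries no gene of the segment and 3 of all 242 were called, and without the G137E libraries none of either, while 11 of the segment were called without K518E.

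**Figure D2:**
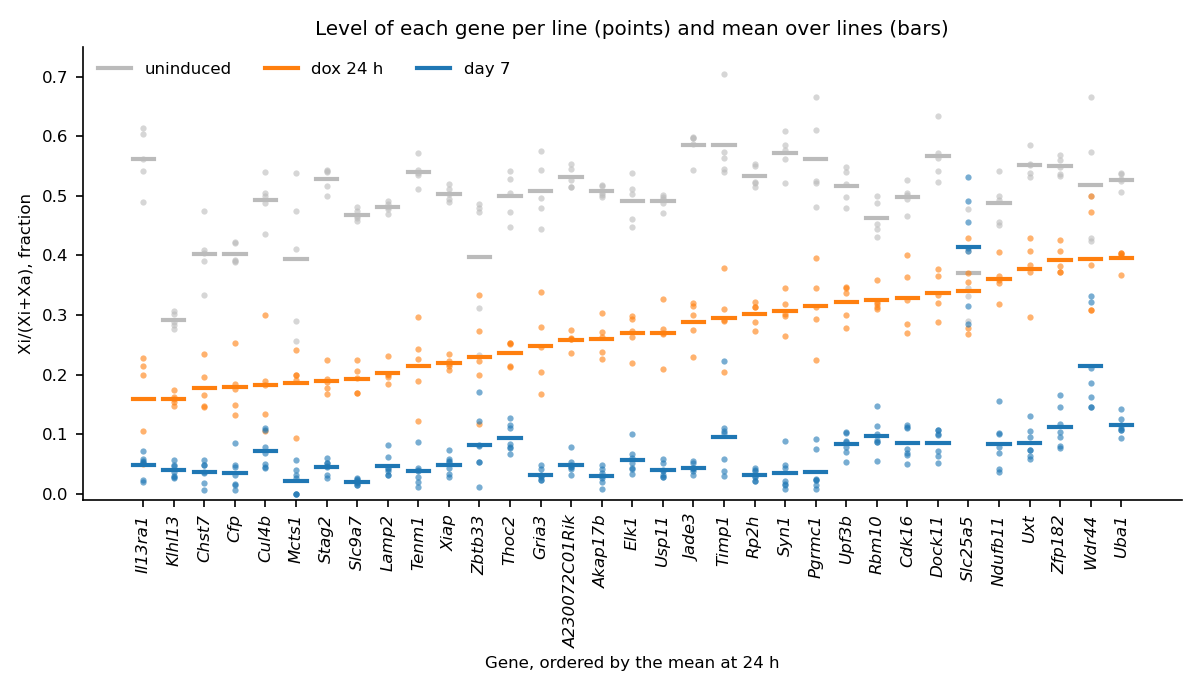
Xi/(Xi+Xa) of each gene before induction (grey), at 24 h (orange) and at day 7 (blue), with a point per line of the first table and a bar for the mean over lines; genes are ordered by their mean at 24 h. The order at 24 h runs from 0.159 for Il13ra1 to 0.395 for Uba1, and at day 7 Slc25a5 and Wdr44 stand above the rest.

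Genes of the segment differed both in the share of their uninduced ratio that they kept at 24 h and in the ratio itself. Averaged over 5 lines, the smallest shares were those of Il13ra1 at 29.3% ± 15.8 (SD over lines, n = 5), Stag2 at 36.1% ± 5.50, Cul4b at 36.7% ± 13.6 and Tenm1 at 39.5% ± 10.7. The largest were those of Slc25a5 at 92.1% ± 9.91, Wdr44 at 80.4% ± 29.9, Uba1 at 75.1%, with lines from 70.0% to 78.7%, and Ndufb11 at 74.0% ± 7.50. Klhl13 kept 54.8% ± 1.69, Chst7 44.1% ± 8.07 and Cfp 44.5% ± 11.9 of uninduced averages of 0.291, 0.402 and 0.403. By the ratio itself, the 4 lowest averages were Il13ra1, a subunit of the interleukin-13 receptor, at 0.159 ± 0.0777 (SD over lines, n = 5), Klhl13 at 0.159 ± 0.00969, Chst7, a carbohydrate sulfotransferase, at 0.177 ± 0.0377, and Cfp, the complement factor properdin, at 0.179 ± 0.0465. Il13ra1 was at 0.105 in Halo-SMCHD1, 0.227 in LRIF1 KO, 0.214 in E147A, 0.2 in Y353C and 0.05 in G137E, so its lines were spread more widely than those of Klhl13. The 4 highest were Uba1, the ubiquitin-activating enzyme, at 0.395 ± 0.016, Wdr44, a Rab11-binding protein of membrane traffic, at 0.395 ± 0.0902, the zinc finger gene Zfp182 at 0.392 ± 0.0239 and Uxt, a prefoldin-like protein, at 0.378 ± 0.0507. The 4 lowest genes differ from each other by less than the spread over lines of any of them except Klhl13, and so do Uba1, Wdr44 and Zfp182 by less than the spread of Uba1 or Zfp182. All 5 lines of Uba1 (0.367 to 0.405) lay above all 5 of Klhl13 (0.148 to 0.174), and the shares kept by Klhl13 ran from 53.2% to 57.5%.

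The order of the 24 h ratios was compared between lines. Between pairs of the 5 lines of the first table, the 24 h ratios of the 33 genes had a Spearman rho of 0.63 to 0.84. The average at 24 h and the average at day 7 had a rho of 0.62, and of 0.55 without Slc25a5 and Wdr44. The uninduced average and the average at 24 h had a rho of 0.35, and the comparison between lines was not corrected for the uninduced ratios. These are correlations across genes of lines that share a genome and SNP positions, and they are given as descriptions. The average at 24 h had a rho of -0.31 with the length of the gene on a log scale and of -0.30 with its position.

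By position, the medians at 24 h were 0.299 for the first group of genes, 0.277 for the pair of Klhl13 and Wdr44, 0.245 for the third group and 0.220 for the fourth. At day 7 they were 0.0527, 0.127, 0.0594 and 0.0447. The first group held Uba1, with the highest ratio at 24 h, and Slc9a7, a sodium/proton exchanger gene next to Chst7, with the lowest at day 7. Ndufb11, Rbm10, Uba1 and Cdk16, which follow one another in this group from 20615326 to 20699877, were at 0.360, 0.324, 0.395 and 0.329 at 24 h, and each was above the segment's median of 0.269. Their neighbour Usp11, at 0.270, was close to that median. Ndufb11 and Rbm10 overlap by 62 bases on opposite strands, Timp1 lies within Syn1 on the other strand, and Uxt overlaps A230072C01Rik by 303 bases. The counting kept the strands apart.

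The genes were also grouped by function. Since 96% of all genes of the table were called from uninduced to 24 h and 94.8% from 24 h to day 7, counts of falls near the size of a group are what nearly all genes show and set no group apart. The 5 genes of the ubiquitin system had a median of 0.220 at 24 h and 0.0487 at day 7. They are Uba1, Usp11, a deubiquitinase, Cul4b, a cullin scaffold, Xiap, an inhibitor of caspases with a RING domain, and Klhl13. All 5 fell by 24 h and again by day 7. The 4 genes of RNA processing, decay and translation were Rbm10, a splicing regulator, Thoc2, a scaffold of the TREX export complex, Upf3b, a factor of nonsense-mediated decay, and Mcts1, a translation re-initiation factor. Their median was 0.279 at 24 h and 0.0886 at day 7, and all 4 fell at both steps. Mcts1 was listed at 0 in all 4 day 5 libraries of Halo-SMCHD1 and G137E and in all day 7 libraries of SMCHD1 KO, E147A and G137E, and stood at 0.0119 and 0.0217 in K518E at day 5.

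The 6 genes of transcription and chromatin were Jade3, a scaffold of a histone acetyltransferase complex, Stag2, a cohesin subunit, Elk1, an ETS factor, Zbtb33, a methyl-CpG binding repressor, Zfp182 and Uxt. Their median went from 0.279 at 24 h to 0.0691 at day 7, and all 6 fell at both steps. Stag2 kept a mean of 36.1% of its uninduced ratio at 24 h, and Zfp182 kept 71.3%. The 14 genes of signalling, membranes and secretion had a median of 0.271 at 24 h and 0.0376 at day 7. Of these, 13 fell by 24 h and all 14 by day 7. They were Cdk16, Rp2h, Slc9a7, Chst7, Lamp2, Dock11, Il13ra1, Wdr44, Pgrmc1, Timp1, Syn1, Cfp, Gria3 and Tenm1. Slc9a7 kept a mean of 4.04% of its uninduced ratio at day 7, Syn1, a synaptic vesicle protein, 4.49%, Rp2h 5.37% and Gria3, an AMPA receptor subunit, 5.92%. The remaining pair, Akap17b and A230072C01Rik, stood at 0.260 and 0.258 at 24 h and at 0.0299 and 0.0488 at day 7.

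The pair of mitochondrial genes was split. Ndufb11, a subunit of respiratory complex I, fell at both steps, to 0.0831 at day 7. Slc25a5, from 36795652 to 36798806 on the plus strand, encodes an ADP/ATP translocase of the inner membrane and passed the test at neither step. At 24 h it was below its uninduced ratio in 4 of the 5 lines of the first table, at 80.7% to 95.8% of it, and at 107% in LRIF1 KO. Its ratio was 0.478 uninduced and 0.43 at 24 h in Halo-SMCHD1, 0.35 and 0.481 at day 5, and 0.438, 0.25 and 0.55 at day 7. In K518E it was 0.487 uninduced, 0.569 at 24 h, 0.492 and 0.487 at day 5, and 0.506 and 0.499 at day 7. The K518E libraries thus stayed between 0.487 and 0.569 at all stages, whereas the 3 Halo-SMCHD1 libraries of day 7 lay on both sides of the earlier ones.

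In the other lines the day 7 libraries of Slc25a5 lay far apart in E147A, G137E and iXist-ChrX and close together in SMCHD1 KO and Y353C. The ratios were 0.408 and 0.574 in iXist-ChrX, 0.534 and 0.529 in SMCHD1 KO, 0.321 and 0.249 in LRIF1 KO, 0.182 and 0.633 in E147A, 0.454 and 0.459 in Y353C, and 0.22, 0.197 and 0.529 in G137E. The lowest of the 18 day 7 libraries was at 0.182. No line contrast called Slc25a5. As a share of the uninduced ratio of the same line, it stood at 103% ± 22.0 at day 7 (SD over lines, n = 5), with a range of 82.5% to 138%, beside a median of 7.40% to 17.5% per line over the genes of the segment. It has the largest spread between replicate libraries at day 7 of the 33 genes, with a pooled SD of 0.148, where the median gene has 0.0230. GENCODE lists a processed pseudogene, Slc25a5-ps, on chromosome 14 from 11161529 to 11181110. Only uniquely aligned reads were counted, and whether reads from copies of the gene enter its ratio was not tested. The next measured genes downstream, C330007P06Rik and Ube2a, which were left out, stood at 0.999 and 0.997 already before induction.

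**Figure D3:**
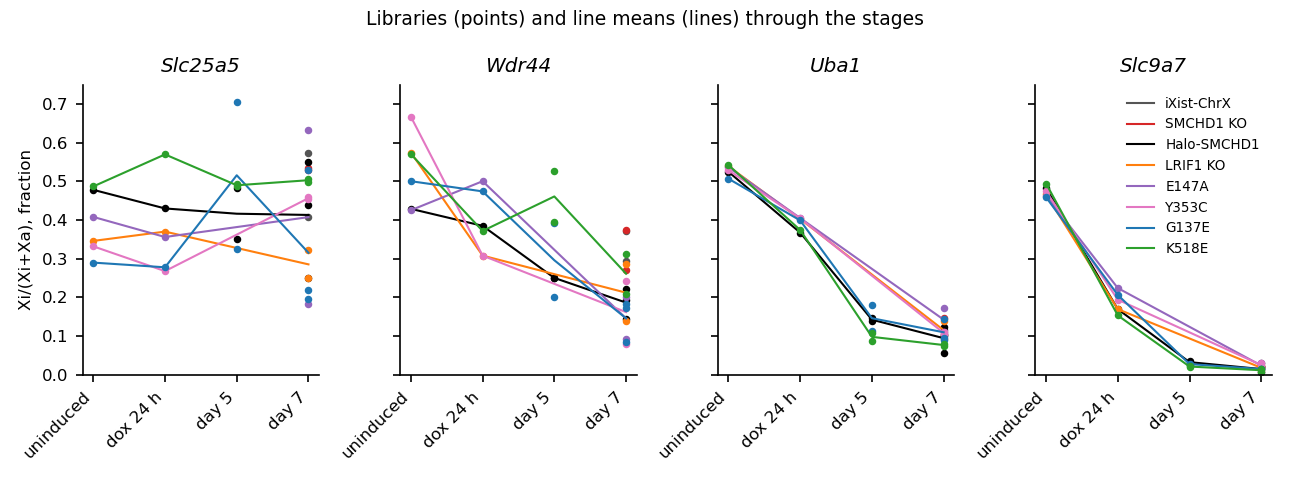
Xi/(Xi+Xa) through the stages for Slc25a5 and Wdr44, the pair with the highest day 7 averages, and for Uba1 and Slc9a7, with the highest 24 h average and the lowest day 7 average; points are libraries and lines join the means of a line. Uba1 and Slc9a7 fall in all lines, Wdr44 falls unevenly, and Slc25a5 stays between 0.182 and 0.705 throughout.

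Wdr44 was the other gene with a high ratio on Xi. At 24 h it was at 0.385 in Halo-SMCHD1, 0.308 in LRIF1 KO, 0.5 in E147A, 0.308 in Y353C, 0.474 in G137E and 0.371 in K518E. At day 5 both Halo-SMCHD1 libraries were at 0.25, those of G137E at 0.2 and 0.391, and those of K518E at 0.527 and 0.394. K518E was thus above Halo-SMCHD1 in both libraries at day 5, by 0.211 in the mean, but limma did not call the difference (1.32 ± 0.54, adjusted p = 0.343). At day 7 the ratios were 0.37 and 0.294 in iXist-ChrX, 0.375 and 0.27 in SMCHD1 KO, 0.143, 0.222 and 0.194 in Halo-SMCHD1, 0.138 and 0.286 in LRIF1 KO, 0.0909 and 0.2 in E147A, 0.243 and 0.08 in Y353C, 0.0833, 0.171 and 0.182 in G137E, and 0.209 and 0.312 in K518E. The libraries of iXist-ChrX and SMCHD1 KO, which carry neither tag nor transgene, were all above those of Halo-SMCHD1. The difference of means of Halo-SMCHD1 and iXist-ChrX was -0.146 and was not called either (-1.10 ± 0.62, adjusted p = 0.481).

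By the median over genes, the day 7 level of the segment was lowest in Halo-SMCHD1 and highest in E147A. The libraries of E147A lay farthest apart. By the mean over genes G137E was lower than Halo-SMCHD1. The median share of the uninduced ratio kept at day 7 was lower in G137E too (7.40%, against 8.64% in Halo-SMCHD1). The segment's median was 0.0508 ± 0.00446 (SD, n = 2) in iXist-ChrX, 0.0602 ± 0.0159 (n = 2) in SMCHD1 KO, 0.0369 ± 0.0133 (n = 3) in Halo-SMCHD1, 0.0492 ± 0.00299 (n = 2) in LRIF1 KO, 0.0776 ± 0.0258 (n = 2) in E147A, 0.0537 ± 0.0058 (n = 2) in Y353C, 0.0409 ± 0.00902 (n = 3) in G137E and 0.042 ± 0.000121 (n = 2) in K518E. Single libraries of Halo-SMCHD1 were at 0.0265, 0.0323 and 0.0519, and those of E147A at 0.0594 and 0.0959 (the latter is the library whose number the labels do not give). By this median the E147A libraries were above all 3 of Halo-SMCHD1. They differed from each other by more than E147A replicate 1 differed from the highest Halo-SMCHD1 library. By the mean over genes, E147A replicate 1, at 0.0654, lay below Halo-SMCHD1 replicate 3, at 0.0773. Up to 10 of the 33 genes were listed at 0 in a day 7 library, with the most in Halo-SMCHD1 replicate 1, and none in any library before day 5. At day 5 the segment's median was 0.0661 ± 0.00221 in Halo-SMCHD1, 0.0765 ± 0.0115 in G137E and 0.0495 ± 0.0105 in K518E (n = 2 each). At both days the K518E medians are over 30 genes and those of the other lines over 33, so they compare unlike sets of genes. Over all genes (242 for K518E and 249 for the others) the medians were 0.0332 in Halo-SMCHD1, 0.0767 in E147A and 0.0304 in K518E at day 7.

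**Figure D4:**
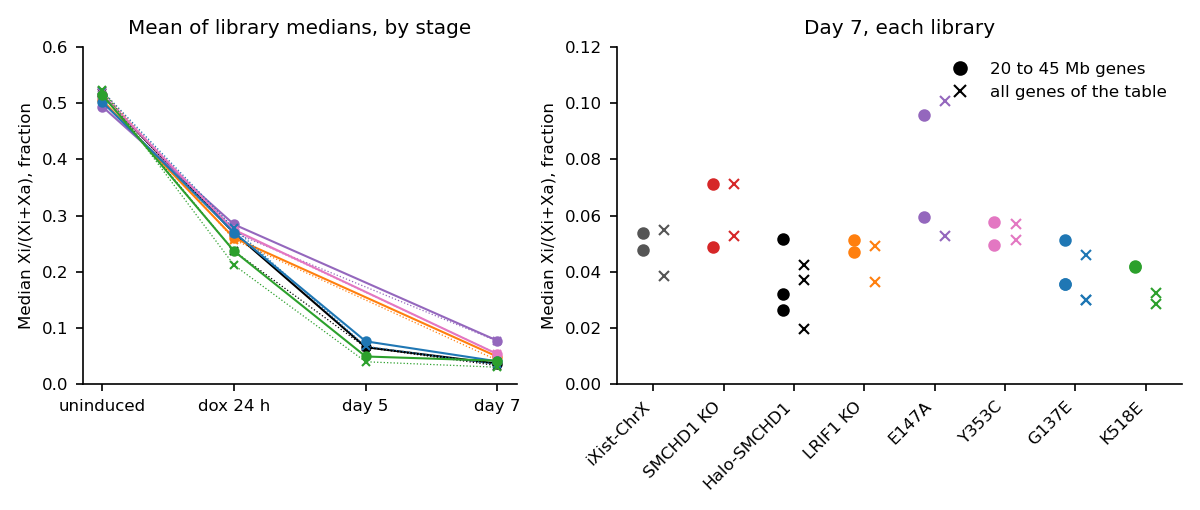
Median Xi/(Xi+Xa) over the genes of the segment (circles) and over all genes of the table (crosses), on the left as the mean over the libraries of a line at each stage (solid and dotted lines, coloured by line as on the right) and on the right for each library at day 7. The segment's medians lie between 0.0265 and 0.0959 at day 7. The uppermost is the unnumbered E147A library, while E147A replicate 1, at 0.0594, lies below SMCHD1 KO replicate 2, at 0.0714.

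Whether the knock-outs and the E147A and Y353C mutants kept more Xi transcription in the segment was asked first over all of them together. The mean of SMCHD1 KO, LRIF1 KO, E147A and Y353C was compared with that of iXist-ChrX, Halo-SMCHD1 and G137E at day 7. limma called 6 of 33 genes higher in the former and none lower, beside 22.9% of all 249 genes, and the median difference was 0.34 in log2 odds for the segment and 0.40 for all genes. By adjusted p the genes were Chst7, Xiap, Dock11, Zfp182 and Zbtb33, with Usp11 as the sixth, which the rule for naming genes does not reach. By function 2 of the 5 genes of the ubiquitin system were among them (Xiap and Usp11), 2 of the 6 of transcription and chromatin (Zfp182 and Zbtb33), 2 of the 14 of signalling, membranes and secretion (Chst7 and Dock11), and none of the 4 of RNA processing or of the mitochondrial pair.

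Chst7 had the smallest adjusted p of the segment. At day 7 it was listed at 0 and stood at 0.00826 and 0.0119 in Halo-SMCHD1, at 0.0109, 0.0215 and 0.0235 in G137E, and at 0.0569 and 0.0142 in iXist-ChrX. It was at 0.0498 and 0.0452 in SMCHD1 KO, 0.0366 and 0.0358 in LRIF1 KO, 0.0594 and 0.0552 in E147A, and 0.0394 and 0.0579 in Y353C. All 8 libraries of the latter lines were above the 6 of Halo-SMCHD1 and G137E, but iXist-ChrX replicate 1 lay among them. The difference was 1.16 ± 0.23 in log2 odds (adjusted p = 0.00464, with a range of 0.000808 to 0.0261 over 25 alternative settings).

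Xiap stood at 0.0529 and 0.0555 in SMCHD1 KO, 0.0511 and 0.0544 in LRIF1 KO, 0.067 and 0.0782 in E147A, and 0.0548 and 0.0608 in Y353C. In the other group iXist-ChrX was at 0.0541 and 0.0311, Halo-SMCHD1 at 0.0299, 0.0284 and 0.04, and G137E at 0.0398, 0.014 and 0.0312. The groups again overlapped only through iXist-ChrX replicate 1, and the difference was 0.71 ± 0.17 (adjusted p = 0.0132, and 0.0568 without iXist-ChrX replicate 2). Dock11, an activator of the GTPase Cdc42, was at 0.0917 and 0.109 in SMCHD1 KO, 0.0946 and 0.119 in LRIF1 KO, 0.083 and 0.115 in E147A, and 0.11 and 0.104 in Y353C. Its values in the other group were 0.0437 and 0.06 for iXist-ChrX, 0.0568, 0.0392 and 0.0935 for Halo-SMCHD1, and 0.0615, 0.0537 and 0.0978 for G137E. Here 1 library each of Halo-SMCHD1 and G137E reached the range of the other group, and the difference was 0.76 ± 0.19 (adjusted p = 0.0144).

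Zfp182 was at 0.154 and 0.138 in SMCHD1 KO, 0.106 and 0.101 in LRIF1 KO, 0.173 and 0.159 in E147A, and 0.0894 and 0.101 in Y353C. For this gene iXist-ChrX was at 0.143 and 0.0897, Halo-SMCHD1 at 0.0864, 0.0688 and 0.0869, and G137E at 0.0767, 0.0708 and 0.0844. E147A and SMCHD1 KO were the high lines, and Y353C lay just above Halo-SMCHD1. The difference was 0.50 ± 0.13 (adjusted p = 0.017, and 0.0637 without iXist-ChrX replicate 2). For Zbtb33 the difference of 1.97 ± 0.64 (adjusted p = 0.0421) rests on low and uneven ratios, since 2 of 3 libraries are listed at 0 in both Halo-SMCHD1 and G137E, beside 1 at 0.158 in the former and 1 at 0.0357 in the latter. Its 2 libraries in LRIF1 KO were at 0.0909 and 0.25, and 9 of 25 alternative settings kept its call. For Usp11 the difference was 0.56 ± 0.19 (adjusted p = 0.0427). Leaving out iXist-ChrX replicate 2 reduced the 6 calls to 2, Chst7 and Dock11, and those among all 249 genes from 57 to 20, and over all left-out libraries they ranged from 2 to 9.

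**Figure D5:**
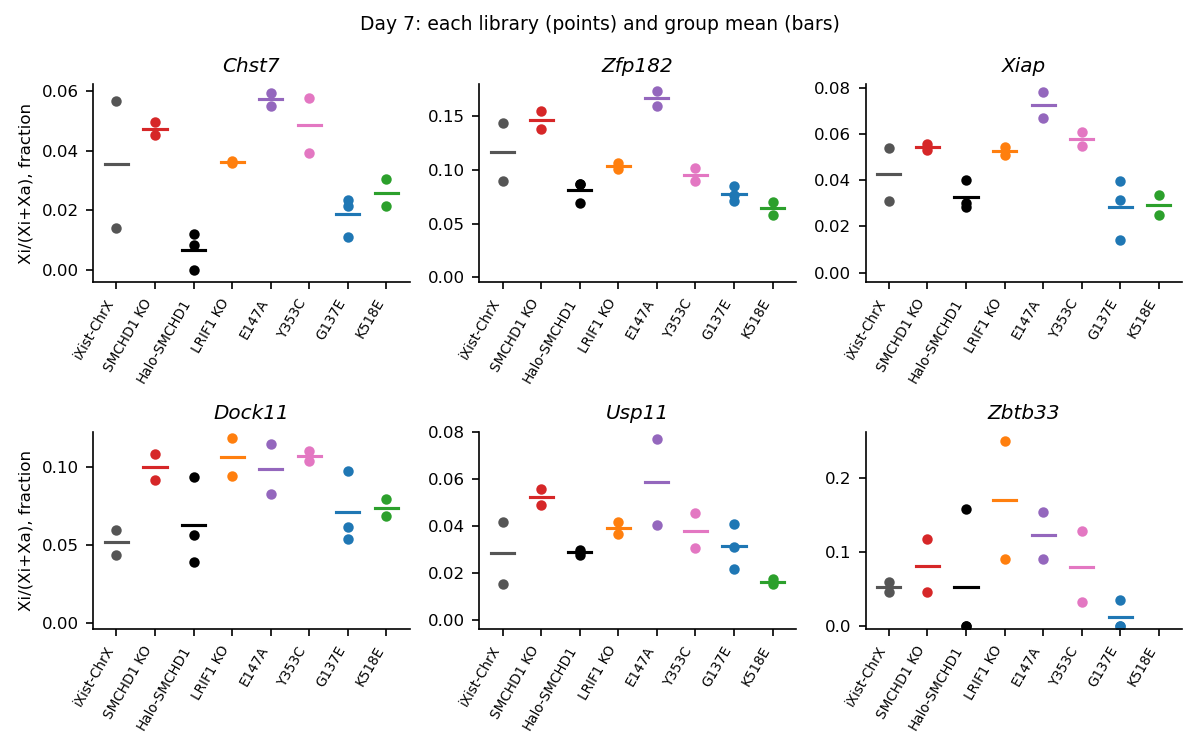
Xi/(Xi+Xa) at day 7 of the 6 genes called in the pooled comparison, with a point per library and a bar for the mean of each line; Zbtb33 has no K518E value. The scales differ between genes. Chst7 and Xiap are above Halo-SMCHD1 in all libraries of SMCHD1 KO, LRIF1 KO, E147A and Y353C, and the library of iXist-ChrX at 0.0569 is the one that overlaps them in Chst7.

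E147A against Halo-SMCHD1 at day 7 gave 3 calls in the segment, all higher in E147A, beside 16.1% of all genes. They were Chst7 (2.16 ± 0.42, adjusted p = 0.00907), Zfp182 (1.10 ± 0.23, adjusted p = 0.0113) and Xiap (1.02 ± 0.30, adjusted p = 0.0389). The median difference was 0.89 for the segment and 0.87 for all genes. The values of E147A and Halo-SMCHD1 were fully separated for 12 of 33 genes with E147A higher and for 0 with E147A lower, beside 46.2% and 0.402% of all genes. The largest differences of means among these were 0.115 for Ndufb11, 0.0855 for Zfp182 and 0.0673 for Pgrmc1, a heme-binding membrane protein. Ndufb11 was at 0.0741 and 0.237 in E147A, against a library listed at 0 and ones at 0.0659 and 0.0566 in Halo-SMCHD1, so most of its difference came from a single library. Leaving out the higher E147A library, whose number the labels do not give, left no call in the segment and 3 among all 249 genes. Without E147A replicate 1 there were 9 in the segment and 88 in all, and without Halo-SMCHD1 replicate 3 there were 5 and 43. With iXist-ChrX as the control instead of Halo-SMCHD1 none of the segment and 3 of all genes were called. Fitting only the E147A and Halo-SMCHD1 libraries left none in the segment and 1 of all genes, with limma adjusted p-values of 0.183 for Chst7, 0.202 for Zfp182 and 0.217 for Xiap. With the replicate number as a block, a fit in which the unnumbered E147A library is a level of its own and so adds nothing to the difference, Chst7 was still called (adjusted p = 0.0490), and Zfp182 (0.0527) and Xiap (0.246) were not.

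In Y353C, 1 gene of the segment was called against Halo-SMCHD1 at day 7, beside 3.61% of all genes. This was Chst7, higher in Y353C by 1.93 ± 0.42 (adjusted p = 0.0217). Over the segment the median difference was 0.31 and over all genes 0.52. Libraries did not overlap for 11 genes with Y353C higher and 0 with it lower, beside 42.2% and 0% of all genes. Among these the largest differences of means were 0.0656 for Cul4b, at 0.121 and 0.098 in Y353C, 0.0605 for Ndufb11, at 0.125 and 0.0778, and 0.0496 for Il13ra1, at 0.0385 and 0.105. The call of Chst7 was lost with iXist-ChrX as the control (adjusted p = 0.867) and when either Y353C library or Halo-SMCHD1 replicate 1 was left out.

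Against Halo-SMCHD1, LRIF1 KO gave 0 calls by limma at day 7, beside 0% of all genes, with 5 genes at an unadjusted p under 0.05, all higher. In log2 odds the median difference was 0.34 for the segment and 0.26 for all genes. Libraries did not overlap for 10 genes with LRIF1 KO higher and 1 with it lower, beside 21.3% and 2.81% of all genes. The largest differences were 0.0748 for Tenm1, a teneurin of neuronal adhesion, at 0.138 and 0.0354 in LRIF1 KO, 0.0633 for Cul4b, at 0.103 and 0.111, and 0.0437 for Dock11. SMCHD1 KO against iXist-ChrX gave 0 calls by limma in the segment, beside 0.803% of all genes, with 2 genes higher and 1 lower at an unadjusted p under 0.05. The median difference was 0.22 for the segment and 0.26 for all genes. Libraries did not overlap for 4 genes with SMCHD1 KO higher and 4 with it lower, beside 27.7% and 7.63% of all genes. The largest differences of means were -0.0676 for Syn1, with 1 of 2 SMCHD1 KO libraries listed at 0, 0.0484 for Dock11, and -0.0403 for Mcts1, with both listed at 0. With Halo-SMCHD1 as the control for SMCHD1 KO, 2 of 33 genes of the segment and 32 of all 249 were called.

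Halo-SMCHD1 was compared with its parent iXist-ChrX at day 7, a comparison in which the Halo tag, the transgene and the clone cannot be told apart. limma called 0 genes of the segment, beside 0% of all genes, with 5 at an unadjusted p under 0.05, all lower in Halo-SMCHD1. The median difference was -0.46 for the segment and -0.36 for all genes. Libraries did not overlap for 0 genes with Halo-SMCHD1 higher and 9 with it lower, beside 2.01% and 25.3% of all genes. After Wdr44, the largest differences of means were -0.0809 for Syn1, at 0.0875 and 0.0893 in iXist-ChrX against 2 libraries listed at 0 and 1 at 0.0225, and -0.046 for Rbm10. Chst7 had the smallest unadjusted p (-1.39 ± 0.42, adjusted p = 0.345), and its day 7 mean was lowest in the line that served as the control for LRIF1 KO, E147A and Y353C. These comparisons share the same Halo-SMCHD1 libraries.

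K518E and G137E were compared with Halo-SMCHD1 at both day 5 and day 7. At day 5, K518E had 0 calls in the segment by limma, beside 0.413% of all genes, with 1 gene higher and 4 lower at an unadjusted p under 0.05. The median difference was -0.39 for the segment and -0.46 for all genes. Libraries did not overlap for 3 genes with K518E higher and 16 with it lower, beside 5.79% and 60.7% of all genes. Besides Wdr44, the largest differences of means were 0.0735 for Slc25a5 and -0.0526 for Ndufb11, at 0.0453 and 0.061 in K518E against 0.132 and 0.0792. At day 7 there were again 0 calls, beside 0%, with 2 genes higher and 1 lower at an unadjusted p under 0.05, and the median difference was 0.03 for the segment and -0.00 for all genes. Libraries did not overlap for 2 genes with K518E higher and 4 lower, beside 7.44% and 10.3% of all genes, with differences of means of 0.0553 for Syn1, -0.0437 for Upf3b and 0.0193 for Chst7.

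G137E had 0 calls by limma in the segment at day 5, beside 0% of all genes, and 1 gene at an unadjusted p under 0.05, which was lower. At day 7 it had 0 calls, beside 0% of all genes, with 2 genes higher and 3 lower at an unadjusted p under 0.05. The median differences were 0.04 at day 5 and 0.12 at day 7, beside 0.03 and 0.05 for all genes. At day 5 libraries did not overlap for 2 genes with G137E higher and 2 lower, beside 11.6% and 12.4% of all genes, with differences of means of -0.0352 for Uxt, 0.0315 for Rbm10 and -0.0261 for Chst7. At day 7 this was 1 gene higher and 1 lower, beside 3.31% and 2.07%, namely Tenm1, with a difference of 0.0258, and Stag2, with -0.0187. A difference that missed the threshold with 2 or 3 libraries per line does not show that the lines were alike.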

How the data were processed

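Chromatin-associated RNA was sequenced from 36 libraries of 8 mESC lines. Per the labels and the study's methods, the authors discarded rRNA reads (bowtie2) and mapped what remained with STAR to mm10 in which strain SNPs were masked. Unique alignments were split by allele (SNPsplit) and counted by gene and strand (featureCounts). What they deposited is a fraction, Xi/(Xi+Xa), for each gene and library, not normalized or pooled, and limited to genes that 10 or more SNP-informative reads cover. Read counts were not used here, so depth and counting error are unknown. The 239 genes and 14 libraries that both tables share have identical values. File starts count from 0 and are given here 1 higher.

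Line contrasts were fitted with limma 3.58.1 (R 4.3.3) on log2((r + 0.01)/(1 - r + 0.01)) over all genes and all day 5 and day 7 libraries of a table, and stage contrasts with line as a block, with Benjamini-Hochberg adjustment over all genes of the table and a threshold of 0.05. G137E, K518E, day 5 and its stage contrasts used the second table. The fit was tested on simulated data. For line contrasts the simulated effects were larger than most differences reported here, so that test does not show how often effects of the reported size are found. Summaries used Python 3.11.15 with pandas 2.3.3 and scipy 1.17.1, gene types GENCODE vM21 and promoters RefSeq.

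Genes named in full are the called ones (up to 5 per contrast), the 3 with the largest difference among those whose libraries do not overlap, the 4 lowest and highest at 24 h and day 7, and those at the ends. The segment, its gene lists and this rule were chosen with earlier results of these data known. Alternatives were other pseudocounts, untransformed fractions, fewer libraries or genes in the fit, moderated variances with a trend, a replicate block, other controls and each library left out.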

Additional observations from a re-analysis of the deposited data

Results flagged for a closer look

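Wdr44 moved in opposite directions from 24 h to day 5 in K518E, where both libraries were above the 24 h library (by 0.0892 in the mean), and in G137E and Halo-SMCHD1, where both were below it (by -0.178 in G137E). A limma test of the difference between K518E and G137E, which assumes that the single 24 h libraries vary like the replicated groups, gave 1.65 ± 0.94 in log2 odds (adjusted p = 1, unadjusted p = 0.109).

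Slc25a5 moved by 0.238 from 24 h to day 5 in G137E and by -0.0798 in K518E, with both libraries of each line on the same side of their 24 h value. The limma test of the difference gave 1.90 ± 1.53 (adjusted p = 1). From 24 h to day 7 Slc25a5 moved by 0.189 in Y353C, and in the opposite direction by -0.0847 in LRIF1 KO, with a tested difference of 1.72 ± 1.70 (adjusted p = 1). LRIF1 KO and K518E were the 2 lines in which every day 7 library was below the 24 h library.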

How the results depend on the processing

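The fractions come without counts, so low ratios at day 7, with up to 10 of 33 genes listed at 0 in a library, cannot be weighted by depth, and 2 or 3 libraries of 1 clone per line limit every contrast between lines. Under the alternatives 151 counts of called genes stayed within 1.5 times the value reported and 18 did not. Many of the 151 belong to contrasts that had 0 calls and stayed at 0, which had no call to lose. For E147A against Halo-SMCHD1 at day 7 the 3 calls (40 of all 249 genes) became 0 (1) when only the libraries compared were fitted, 0 (3) with iXist-ChrX as control, and 0 to 9 (3 to 88) with single libraries left out. For Y353C the 1 call (9 of all genes) became 0 with a pseudocount of 0.001 (6), with only the libraries compared (0) and with iXist-ChrX as control (2), and 0 to 1 with libraries left out. With Halo-SMCHD1 as control SMCHD1 KO had 2 calls (32 of all 249 genes), an alternative chosen after seeing the data. Leaving out libraries gave 0 to 1 calls for Halo-SMCHD1 against iXist-ChrX and 2 to 9 for the pooled comparison, and leaving out lines gave 0 to 11 for day 7 against day 5. The direction of single genes was followed for Chst7, Zfp182 and Xiap in E147A, for Chst7 in Y353C and for these 3 genes, Dock11 and Zbtb33 in the pooled comparison, and none of these reversed. For the other calls only counts were recomputed. Groups share replicate numbers, but most same-numbered libraries did not deviate together (correlation over genes of -0.277 to 0.255 in 52 pairs, 13 over 0.1). The main fit therefore did not pair them. A pair of lines with 2 replicates each gives the same value for both numbers. SMCHD1 KO correlated at 0.255 with Y353C and at 0.152 with LRIF1 KO, and LRIF1 KO at 0.103 with Y353C. With the replicate number as a block 1 gene was called for E147A (11 of all genes) and 2 for Y353C (9 of all genes). As a mean over genes in place of the median, the day 7 level was 0.0762 in iXist-ChrX, 0.0861 in SMCHD1 KO, 0.0584 in Halo-SMCHD1, 0.0726 in LRIF1 KO, 0.0969 in E147A, 0.0748 in Y353C, 0.0541 in G137E and, over 30 genes instead of 33, 0.0644 in K518E. With the left-out genes put back the median was 0.058 in LRIF1 KO, 0.0618 in Y353C and 0.0469 in K518E, and in the other 5 lines it moved by less than the SD between libraries. Averaged over the lines of the first table at day 7, Araf (0.128), Nkap (0.229), C330007P06Rik (0.9996) and Ube2a (1) were above the segment's median of 0.0487. Zfp300, at 0.0384, was below it.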
